A study of Homo sapiens with 6 samples.

Results

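The genes that copy DNA and carry the cell from G1 into S phase were followed in HepG2 cells, a human liver cancer line, with and without atractylon, a sesquiterpenoid of Atractylodes rhizomes. The set was a list of 47 named genes in 9 roles, and the rule that picks them uses no measured value, although the list was drawn up with earlier results of these data known. Transcripts in the deposited table were matched by identifier to gene symbols, and 46 of the 47 genes were found among 33791 genes in all. UHRF1, which recruits the maintenance DNA methyltransferase to newly copied DNA, has no expression result here because none of its transcripts matched. The atractylon group was given 20 µM of the compound and the control group was left without it, with 3 libraries in each. All cells were kept in DMEM with fetal bovine serum and antibiotics, and the time in atractylon and any vehicle are not stated in the labels. The study's stated subject is how atractylon acts on invasion and migration of hepatic cancer cells, and it compared long noncoding RNAs between these groups.

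Replication begins with licensing in G1, when the origin recognition complex, CDC6 and CDT1 load the MCM2-7 ring on DNA. At the start of S phase CDC45 and the GINS complex join the ring to form the active helicase, and the polymerases follow behind it with the sliding clamp PCNA. Most of these genes are known targets of E2F factors, which are held inactive by the retinoblastoma protein until cyclin-dependent kinases release them. Their mRNAs are widely used as a readout of the proliferating fraction of a culture. In RNA from whole cultures, fewer cells in S phase and less RNA per cell cannot be told apart.

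Promoter sequence is shown for 6 of the genes because E2F sites are what the set is known to share. RefSeq promoters (GRCh38.p14) run from 250 bases before to 50 bases after an annotated start, so it holds upstream sequence and, where the start is that of the transcript, the first bases of the first exon. The last 40 bases lay in a GENCODE transcript of the same gene for 46 of the 53 promoters of the set, and CHAF1A, printed here, was among those for which they did not. A core E2F motif was counted where the letters TTCCCGC occurred on either strand, and likewise for the letters TTGGCGC, for the form TTCGCGC and for the form TTGCCGC. Of the 41 listed genes with a RefSeq promoter in the table used, 34 (82.9%) held at least 1 match, against 4169 of 27305 genes (15.3%) overall and 3245 of 15843 protein-coding genes (20.5%). By promoter the shares were 36 of 53 (67.9%) for the set, 4553 of 35116 (13%) overall and 3568 of 22199 (16.1%) for protein-coding genes. These shares and the other promoter values of the set include UHRF1, which had no matched transcript. The promoters of the set also had a higher median GC content, 66% against 62.3% for protein-coding genes, and the motifs are rich in G and C. MCM4, MCM5, GINS4, RPA2, RPA3 and CCNE2 had no promoter in that table. The 6 printed are, in 6 of the roles, those of the matching gene with the highest level per length, read 5′ to 3′ along the gene, with motif matches in capitals.
CDT1 (chr16:88803539-88803838, plus strand): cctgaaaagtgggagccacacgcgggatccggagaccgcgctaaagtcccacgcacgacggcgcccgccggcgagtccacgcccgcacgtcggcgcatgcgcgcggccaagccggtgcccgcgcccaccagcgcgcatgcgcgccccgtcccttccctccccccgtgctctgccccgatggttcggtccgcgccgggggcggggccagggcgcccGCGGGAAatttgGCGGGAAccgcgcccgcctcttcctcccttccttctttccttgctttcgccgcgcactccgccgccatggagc
MCM3 (chr6:52284693-52284992, minus strand): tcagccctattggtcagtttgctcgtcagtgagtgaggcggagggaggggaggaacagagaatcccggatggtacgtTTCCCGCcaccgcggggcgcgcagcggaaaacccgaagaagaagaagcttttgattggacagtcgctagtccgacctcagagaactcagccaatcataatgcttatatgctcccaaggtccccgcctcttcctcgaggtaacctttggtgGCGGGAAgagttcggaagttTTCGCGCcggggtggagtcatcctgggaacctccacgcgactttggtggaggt
PCNA (chr20:5126573-5126872, minus strand): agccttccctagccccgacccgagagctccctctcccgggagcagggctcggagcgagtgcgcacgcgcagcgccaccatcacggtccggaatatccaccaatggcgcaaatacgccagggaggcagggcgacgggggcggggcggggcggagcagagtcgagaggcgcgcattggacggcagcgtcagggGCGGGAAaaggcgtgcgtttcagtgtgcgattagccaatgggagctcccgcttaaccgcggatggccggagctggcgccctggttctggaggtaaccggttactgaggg
TK1 (chr17:78187003-78187302, minus strand): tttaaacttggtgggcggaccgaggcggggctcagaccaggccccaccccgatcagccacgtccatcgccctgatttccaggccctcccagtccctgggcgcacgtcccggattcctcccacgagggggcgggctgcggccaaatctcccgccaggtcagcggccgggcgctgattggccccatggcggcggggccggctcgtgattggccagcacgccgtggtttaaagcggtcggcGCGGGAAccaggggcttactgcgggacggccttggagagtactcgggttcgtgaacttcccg
E2F1 (chr20:33686336-33686635, minus strand): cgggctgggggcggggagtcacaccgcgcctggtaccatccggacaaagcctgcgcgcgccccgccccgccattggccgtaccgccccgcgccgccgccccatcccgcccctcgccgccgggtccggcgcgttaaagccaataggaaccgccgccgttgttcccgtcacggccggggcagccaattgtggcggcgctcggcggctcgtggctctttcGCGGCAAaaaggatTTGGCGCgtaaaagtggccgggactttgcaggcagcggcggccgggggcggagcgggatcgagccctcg
CHAF1A (chr19:4402390-4402689, plus strand): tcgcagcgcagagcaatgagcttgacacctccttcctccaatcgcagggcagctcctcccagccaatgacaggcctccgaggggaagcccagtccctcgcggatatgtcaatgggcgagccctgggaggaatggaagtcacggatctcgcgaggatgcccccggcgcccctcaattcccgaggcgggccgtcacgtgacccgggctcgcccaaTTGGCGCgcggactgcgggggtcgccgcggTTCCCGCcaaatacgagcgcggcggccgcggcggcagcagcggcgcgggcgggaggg

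CDT1 had a pair of matches on the same strand just upstream of its start, both GCGGGAA, the reverse complement of TTCCCGC. MCM3 had 3, the nearest of which begins 3 bases before its start and runs across it. PCNA had 1, TK1 had 1, E2F1 had 2 and CHAF1A had 2. These are matches of letters in a window and say nothing on whether a factor was bound in these cells.

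The 6 libraries held 5859575 to 8832092 expected counts each, and the 46 genes took 0.331% to 0.351% of the gene counts. HepG2 identity was clear from the markers: all 8 hepatocyte genes were measured, with albumin at a mean of 3591 FPKM and alpha-fetoprotein at 256.6 FPKM. Here FPKM is the fragment count scaled by sequencing depth and by transcript length, a level per length. Of the markers of other cells, 3 of 6 blood genes, 4 of 5 fibroblast genes and 2 of 4 endothelial genes were below 0.5 FPKM in mean level. PTPRC, CD3E and MS4A1 were among these. Above that level were CD68 at 18 FPKM, CD14 at 7.998 FPKM, PDGFRB at 8.673 FPKM, VWF at 1.335 FPKM, PECAM1 at 0.8117 FPKM and lysozyme. The summed blood markers, 542.9 to 692.4 FPKM, came mostly from lysozyme at 568.5 FPKM.

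In this comparison no replication or G1/S gene passed the test in either direction. The quasi-likelihood test of edgeR, adjusted by Benjamini and Hochberg's method over 12302 genes at a threshold of 0.05, called 0 of the 46 higher and 0 lower. The same held over all genes, where 0% were called higher and 0% lower, and every one of the 46 had an adjusted p of 0.9999 by that test. At an unadjusted p under 0.05 there was 1 of the 46, GINS1, against 196 of all genes (1.59%), and DESeq2 and limma also made 0 calls, with 102 and 401 genes at an unadjusted p under 0.05. Summed over the 46 genes the level was 3230, 3451 and 3465 CPM (counts scaled to a common library size) in the atractylon libraries, and 3439, 3470 and 3379 CPM in the control libraries. The lowest value was that of atractylon replicate 1, and the other atractylon libraries lay within the control range. The means were 3382 ± 131.5 CPM and 3430 ± 46.52 CPM (SD, n = 3 each), a log2 ratio of -0.02.

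The estimates were narrow for most genes. Each interval covers a single gene without adjustment over all genes, so it does not give the smallest change the test would call. The 95% interval of the fold change lay within 1.5-fold of equality for 35 of the 46 genes (76.1%), against 54.6% of all genes tested. It lay within 2-fold for 45 of the 46 (97.8%), against 81.3% of all genes, the exception being CCNE2. The median standard error of the log2 fold change was 0.154 for the set and 0.196 over all genes, at median levels of 39.76 and 22.64 CPM. Of the 46 log2 fold changes, 34 were below 0 (73.9%), against 46.7% of all genes, and their median was -0.04 against 0.01 over all genes. For scale, the median log2 deviation of the set in a library had an SD of 0.04 between replicate libraries. That SD describes single libraries and is not the error of the median log2 fold change. The 46 values ran from -0.38 for GMNN to 0.36 for POLE2. With atractylon replicate 1 left out, 26 were below 0, against 53.1% of all genes tested in that setting. With limma on log2(FPKM + 0.5), 28 were below 0, against 52.3% of all genes.

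**Figure D1:**
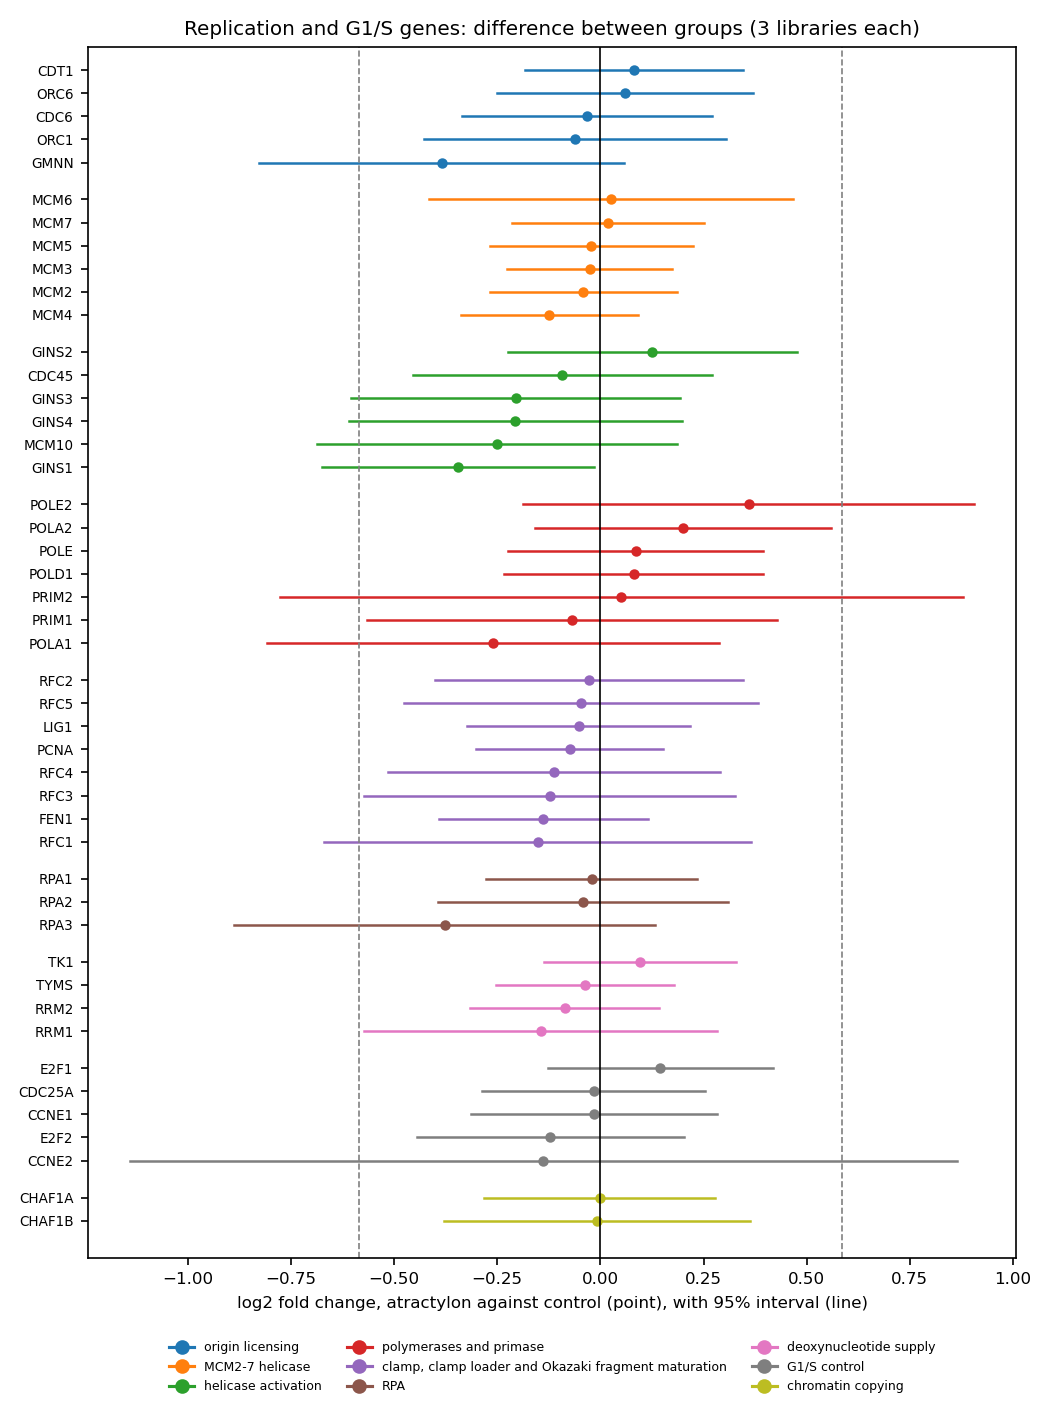
Log2 fold change of each of the 46 genes, atractylon against control (points, 3 libraries a group), with its 95% interval (lines), grouped by role. The dashed lines mark 1.5-fold in either direction. Of the 46 intervals, 35 stay between them and the GINS1 interval alone leaves out 0.

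Among the 5 origin licensing genes, 2 estimates were above 0 and 3 below, with a median log2 fold change of -0.03, and the groups overlapped for all 5. CDT1, which brings the MCM2-7 ring to origins, was at 107, 134 and 131 CPM with atractylon and at 109, 127 and 116 CPM without. The lowest library of each group was replicate 1, and the log2 fold change was 0.08 ± 0.12 (SE, 95% interval -0.18 to 0.35). Geminin (GMNN), the protein that binds CDT1 and blocks a second round of licensing, was at 25.0, 15.8 and 20.4 CPM with atractylon and at 29.9, 27.4 and 23.0 CPM without. Only atractylon replicate 1 lay inside the control range. Its log2 fold change, -0.38 ± 0.20 (SE, interval -0.83 to 0.06), was the lowest estimate of the set. Per length, geminin stood at 41.9%, 23.6% and 26.3% of CDT1 in the atractylon libraries and at 54.1%, 47.4% and 36% in the control libraries, and the groups overlapped in that ratio. The recruiter CDC6 (-0.03) and the origin recognition subunits ORC1 (-0.06) and ORC6 (0.06) had estimates near 0 on the log2 scale.

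The MCM2-7 genes, which encode the ring that becomes the replicative helicase, had tight estimates. All 6 intervals lay within 1.5-fold, and the summed level was 1314 ± 77.11 CPM with atractylon and 1341 ± 31.34 CPM without (SD, n = 3 each). MCM3, the highest of them per length, was at 380, 376 and 399 CPM with atractylon and at 403, 389 and 384 CPM without, and the groups overlapped. Its log2 fold change was -0.03 ± 0.09 (SE, interval -0.23 to 0.17). MCM4 was at 145, 145 and 161 CPM with atractylon and at 168, 161 and 163 CPM without. The highest atractylon library lay just above the lowest control library, and the log2 fold change was -0.12 ± 0.10 (SE, interval -0.34 to 0.09). MCM2 (-0.04), MCM5 (-0.02), MCM6 (0.03) and MCM7 (0.02) lay closer to 0.

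The helicase activation genes, which turn the loaded ring into a moving helicase, had the lowest median of the 9 roles. It was -0.21 on the log2 scale, with 5 of 6 estimates below 0, and the summed level was 145.6, 154.5 and 168.3 CPM with atractylon and 168.3, 176.6 and 167.4 CPM without. GINS1, a subunit of the GINS complex, was at 39.4, 31.4 and 39.4 CPM with atractylon and at 51.0, 47.6 and 41.7 CPM without. Every control library was above every atractylon library. Over all genes, 3.02% had all atractylon libraries below all control libraries and 2.71% the reverse, so 1 of 46 in the first direction and 0 in the second lie near those shares. The GINS1 log2 fold change was -0.34 ± 0.15 (SE, interval -0.67 to -0.02), with an unadjusted p of 0.0416 and an adjusted p of 0.9999 by edgeR's test over all genes. CDC45, the helicase cofactor and the highest of this role per length, was at 26.3, 28.1 and 29.2 CPM with atractylon and at 28.6, 35.1 and 25.5 CPM without. Its control libraries spanned the atractylon range, and its log2 fold change was -0.09 ± 0.16 (SE). The other GINS subunits were at 0.13 (GINS2), -0.20 (GINS3) and -0.21 (GINS4), and MCM10, which helps activate the helicase, was at -0.25, all on the log2 scale with groups that overlapped.

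The 7 polymerase and primase genes leaned the other way, with 5 estimates above 0 and a median log2 fold change of 0.08. POLD1, the catalytic subunit of the lagging-strand polymerase delta, was at 77.97, 106 and 106 CPM with atractylon and at 82.0, 92.7 and 99.6 CPM without. Replicate 1 was the lowest library in both groups, and the log2 fold change was 0.08 ± 0.14 (SE, interval -0.23 to 0.39). POLE2, the second subunit of the leading-strand polymerase epsilon, was at 9.80, 10.01 and 7.27 CPM with atractylon and at 6.06, 8.74 and 6.30 CPM without. A pair of atractylon libraries lay above all controls and the third within their range. Its log2 fold change, 0.36 ± 0.25 (SE, interval -0.19 to 0.91), was the highest estimate of the set. POLE, the catalytic subunit of epsilon, was at 0.09, and the polymerase alpha-primase genes were at 0.20 (POLA2), 0.05 (PRIM2), -0.07 (PRIM1) and -0.26 (POLA1) on the log2 scale.

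All 8 clamp, clamp loader and Okazaki fragment genes had estimates below 0, from -0.15 to -0.03 on the log2 scale, with a median of -0.09. The groups overlapped in CPM for all 8. Removing the GC trend described further on put RFC5 above 0 (0.015), and so did counting protein-coding transcripts only for RFC2 (0.0059). With libraries left out, estimates above 0 were also reached by RFC1 (up to 0.0098), RFC2 (0.0641), RFC5 (0.0601) and LIG1 (0.0326). Their summed level was 416.7, 396.1 and 405.5 CPM with atractylon and 450.9, 423.1 and 420.4 CPM without, so the sums did not overlap in CPM. In FPKM the sums overlapped, at 295.9, 265.2 and 272.1 with atractylon and 309.6, 298 and 293 without. How often sums over other gene sets separate was not counted. PCNA, the sliding clamp that tethers polymerases to DNA, was at 196, 169 and 183 CPM with atractylon and at 207, 187 and 184 CPM without. Atractylon replicate 1 lay above the lower control libraries, and the log2 fold change was -0.07 ± 0.10 (SE, interval -0.30 to 0.15). FEN1, the nuclease that trims Okazaki fragment flaps, was at 59.2, 68.9 and 64.8 CPM with atractylon and at 72.9, 71.3 and 68.2 CPM without, and its log2 fold change was -0.14 ± 0.11 (SE, interval -0.39 to 0.12). In CPM its groups met only where the highest atractylon library passed the lowest control library. The clamp loader genes RFC1 (-0.15), RFC2 (-0.03), RFC3 (-0.12), RFC4 (-0.11) and RFC5 (-0.05) and the nick-sealing ligase LIG1 (-0.05) made up the rest.

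The 3 genes of RPA, which coats single-stranded DNA at the fork, also had estimates below 0 on the log2 scale. RPA3, the smallest subunit, was at 16.0, 17.8 and 15.9 CPM with atractylon and at 28.3, 21.8 and 14.8 CPM without. The control libraries held both the lowest and the highest of the 6 values, and the log2 fold change was -0.38 ± 0.23 (SE, interval -0.89 to 0.13). RPA1 (-0.02 ± 0.12, SE) and RPA2 (-0.04 ± 0.16, SE) lay at 0 within their errors.

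The deoxynucleotide supply genes summed to 462.4 ± 7.425 CPM with atractylon and 463.9 ± 10.24 CPM without (SD, n = 3 each). Thymidine kinase (TK1), the salvage enzyme that peaks in S phase, was at 176, 215 and 189 CPM with atractylon and at 182, 183 and 177 CPM without. Atractylon replicate 1 was the lowest of all 6 libraries and replicate 2 the highest, and the log2 fold change was 0.10 ± 0.11 (SE, interval -0.14 to 0.33). Thymidylate synthase (TYMS) was at -0.04 and the ribonucleotide reductase subunits at -0.09 (RRM2) and -0.14 (RRM1) on the log2 scale.

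E2F1, the activator at the head of the G1/S programme, was at 147, 194 and 169.6 CPM with atractylon and at 144, 169 and 149 CPM without. The groups overlapped, with replicate 1 lowest and replicate 2 highest in each, and the log2 fold change was 0.15 ± 0.12 (SE, interval -0.13 to 0.42). E2F2 (-0.12), the phosphatase gene CDC25A (-0.02) and the cyclin E genes CCNE1 (-0.02) and CCNE2 (-0.14) were the others, and CCNE2 was the least certain value of the set, with a standard error of 0.45 at a level of 1.10 to 2.26 CPM. Both chromatin assembly factor genes, which encode subunits of the chaperone that places histones on new DNA, had estimates close to 0. CHAF1A was at 55.5, 60.4 and 70.7 CPM with atractylon and at 60.7, 61.9 and 64.0 CPM without, and its log2 fold change was -0.0021 ± 0.13 (SE). The atractylon libraries enclosed the control range. CHAF1B was at 22.9, 23.5 and 24.4 CPM with atractylon and at 20.2, 27.4 and 23.5 CPM without, and here the control libraries enclosed the atractylon range, with a log2 fold change of -0.0084 ± 0.17 (SE).

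Levels per length differed far more between genes than between groups. PCNA led at 158.3 ± 13.62 FPKM (SD over 6 libraries), followed by MCM3 at 137.9 ± 4.297, TK1 at 130.2 ± 8.731, MCM7 at 124.1 ± 12.06 and MCM4 at 115.4 ± 9.806 FPKM. Neighbours in that order from MCM3 to MCM4 lay within their spread. In FPKM the groups did not overlap for 1 gene with higher values under atractylon, CDT1, and for 2 with lower values, GINS1 and FEN1, against 3.19% and 4.1% of all genes. In all, 6 genes were at or above 100 FPKM, 35 at or above 10 FPKM and 5 below 5 FPKM, and 43 had at least 10 CPM in every library. The 5 lowest were POLA1 at 4.45 ± 1.496, MCM6 at 4.425 ± 0.7414, MCM10 at 3.895 ± 1.133, PRIM2 at 3.685 ± 1.34 and CCNE2 at 0.99 ± 0.4605 FPKM.

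MCM6 stood apart from its partners, an observation chosen after the values were seen. The 6 MCM2-7 proteins form a ring with 1 copy of each, yet MCM6 was at 5.55%, 3.52% and 3.52% of the mean FPKM of the other 5 genes in the atractylon libraries and at 4.51%, 3.94% and 4% in the control libraries. All 3 annotated MCM6 transcripts were in the table. The ratio was 4.2% ± 1.17 with atractylon and 4.15% ± 0.31 without (SD, n = 3 each), so it was low in both groups. The program that assigned reads is not named in the labels, and whether the level reflects the mRNA was not tested. Among other related pairs, E2F2 stood at 11.5% ± 1.27 of E2F1 with atractylon and 12.9% ± 2.64 without, and CCNE2 at 3.38% ± 0.509 and 4.66% ± 2.81 of CCNE1.

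**Figure D2:**
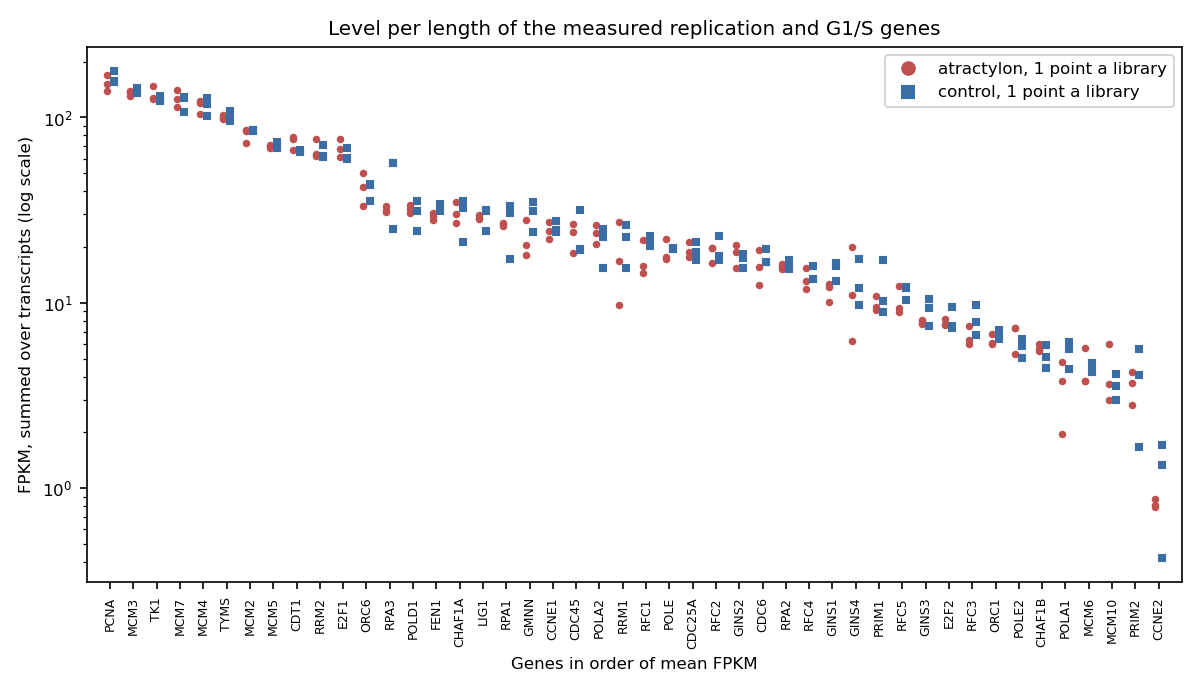
Level per length (FPKM summed over transcripts, log scale) of the 46 genes in each atractylon (circles) and control (squares) library, in order of the mean. The levels run from 158.3 FPKM for PCNA to 0.99 FPKM for CCNE2, and within most genes the libraries of the groups mix. The groups do not overlap in FPKM for CDT1 (higher with atractylon), GINS1 and FEN1 (both lower).

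The summed counts of most genes came from protein-coding transcripts, but not for all of them. The most abundant transcript was protein-coding in 44 of 46 genes, and it held a median of 81.4% of the gene's counts. The exceptions were ORC6, where the retained-intron transcript ORC6-207 held 68.8% of the counts and protein-coding transcripts 14.1%, and PRIM2, where the retained-intron transcript PRIM2-203 held 56.9% and protein-coding transcripts 39.5%. Retained-intron transcripts, which keep an intron and are not annotated as coding, took over 10% of the counts in 9 of 46 genes (19.6%), against 1641 of 11757 protein-coding genes (14%). The others were MCM5 (19.9%), POLA2 (19.1%), MCM7 (17.7%), CDT1 (15.5%), CCNE2 (14.5%), MCM4 (13.6%) and RRM2 (10.7%). PRIM1 had 24.3% of its counts in transcripts annotated for nonsense-mediated decay. With protein-coding transcripts only, a setting chosen after seeing the data, the log2 fold change of ORC6 went from 0.06 to -0.19 and that of PRIM1 from -0.07 to 0.11. That of POLA2 went from 0.20 to 0.40, with an unadjusted p under 0.05, and 0 of the 46 genes passed the test.

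Some of these genes share exon sequence with other genes, so their counts are less certain where reads were divided by estimate or without regard to strand. In GENCODE 29, 20 of the listed genes share exon bases with another gene, and 8 share at least 10% of them. ENOSF1 covers 39.1% of the TYMS exon bases on the opposite strand and INTS8 covers 37% of those of CCNE2. On the same strand, overlapping gene models cover 35.1% of POLA2, 20.2% of RRM2 and 14.9% of PRIM1.

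**Figure D3:**
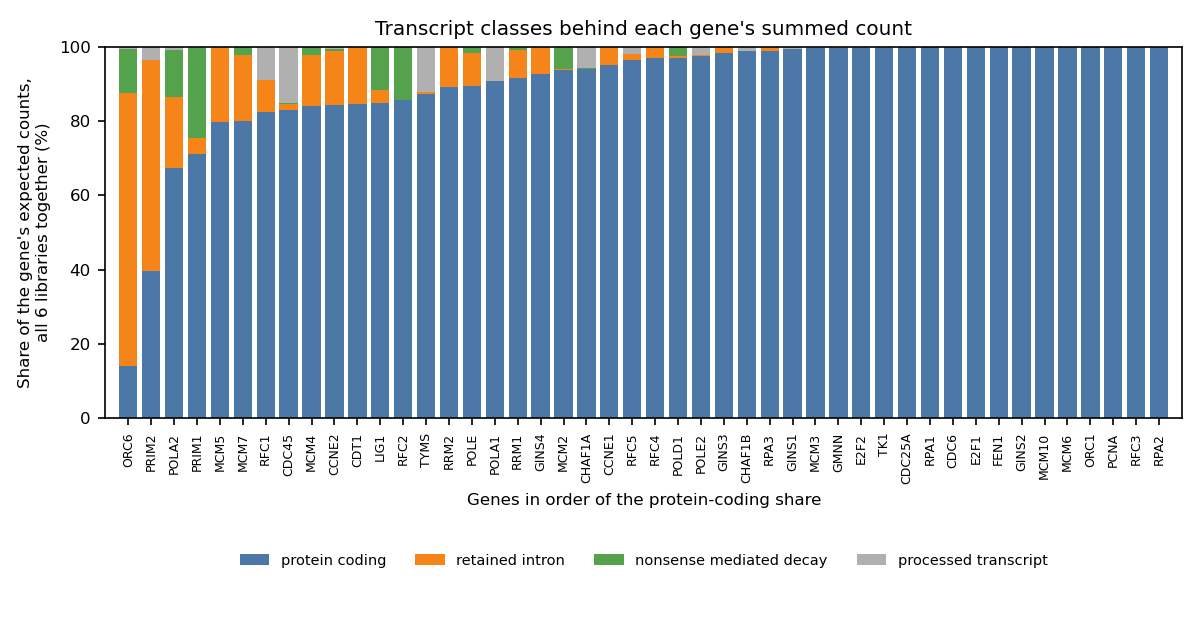
Share of each gene's expected counts (%, all 6 libraries together) held by protein-coding, retained-intron, nonsense-mediated decay and processed transcripts, with genes in order of the protein-coding share. ORC6 at 14.1% and PRIM2 at 39.5% are the genes whose protein-coding share is below that of every other gene by a wide margin.

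The transcripts were then compared one by one, since a gene's sum can hide transcripts that move apart. Of 155 transcripts tested, from 45 of the genes, 0 passed the threshold in either direction, as did 0% in each direction over 39882 transcripts, and the smallest adjusted p over all of them was 0.9184 by edgeR's test. At an unadjusted p under 0.05 there were 3, against 2.32% of all transcripts. They were transcripts of CCNE1, PCNA and MCM4, named after their values were seen. PCNA-202 and the retained-intron transcript MCM4-206 held only 1.98% and 1.06% of their genes' counts, and their log2 fold changes were -1.603 ± 0.58 and -3.19 ± 1.33 (SE).

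The CCNE1 pair carried most of its gene. Cyclin E1 activates CDK2 at the G1/S boundary. The protein-coding transcripts CCNE1-203 of 1680 bases and CCNE1-201 of 2043 bases held 61.4% and 29.9% of its gene's counts. The retained-intron transcript CCNE1-204 held 4.6%, at 0%, 2.79% and 0.496% in the atractylon libraries and 5.61%, 16.7% and 3.11% in the control libraries. Its log2 fold change was -2.92 ± 1.28 (SE, interval -5.93 to 0.09). CCNE1-201 was at 17.3, 12.6 and 14.5 CPM with atractylon and at 6.61, 7.53 and 7.91 CPM without. Its log2 fold change was 1.00 ± 0.25 (SE, interval 0.41 to 1.60), with an adjusted p of 1 by edgeR's test over all transcripts. CCNE1-203 was at 16.4, 23.97 and 20.3 CPM with atractylon and at 30.8, 22.0 and 26.7 CPM without. The log2 fold change of CCNE1-203 was -0.40 ± 0.21 (SE, interval -0.90 to 0.11). How many of all transcripts tested had groups that do not overlap was not counted. As a share of the gene's counts, CCNE1-201 was at 49.1%, 31.3% and 39.5% with atractylon and at 16.3%, 20.5% and 21.2% without. The gene sum was 37.6 ± 2.5 CPM with atractylon and 38.0 ± 2.34 CPM without (SD, n = 3 each). Reads shared by the transcripts were divided by estimate, so their values are tied to each other. Shares also changed places between libraries of the same group in POLA1, named after its values were seen. POLA1-202 held 84.6%, 98.7% and 86.9% of the POLA1 counts with atractylon and 89.6%, 0% and 0% without. POLA1-201 held 9.16%, 0% and 0% with atractylon and 0%, 85.5% and 90.5% without. Whether the CCNE1 shares reflect the mRNA or the division of reads was not tested.

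**Figure D4:**
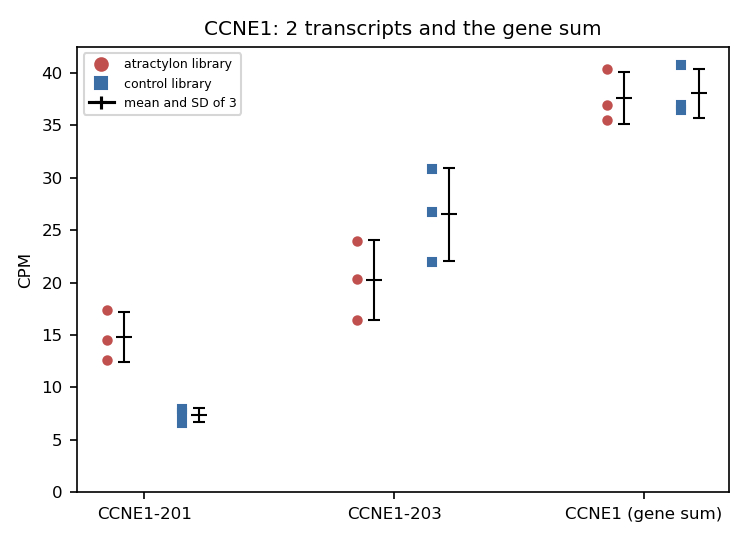
Level in CPM of the main CCNE1 transcripts and of the gene sum in each atractylon (circles) and control (squares) library, with mean and SD (n = 3). CCNE1-201 has a mean of 14.8 CPM with atractylon and 7.35 CPM without, CCNE1-203 of 20.2 and 26.5 CPM, and the sums are 37.6 and 38.0 CPM.

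Within groups, the libraries differed along GC content, and the set followed that difference. Over all 12302 genes, the Spearman correlation between transcript GC content and a gene's deviation in a library from its mean over the 6 libraries was -0.596, 0.594 and 0.393 in atractylon replicates 1 to 3. It was -0.421, 0.175 and 0.021 in control replicates 1 to 3. Over the 46 genes it was -0.682, 0.722 and 0.612 with atractylon and -0.378, -0.008 and 0.063 without, as a description across genes that share each library. Atractylon replicate 1 and control replicate 1 thus leaned towards genes low in GC, and atractylon replicates 2 and 3 towards genes high in GC.

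The 16 genes of the set lowest in GC, at or below 45.59%, had median log2 deviations of 0.17, -0.17 and -0.15 in the atractylon libraries and 0.16, 0.026 and -0.018 in the control libraries. The 16 highest in GC, at or above 51.69%, had -0.16, 0.11 and 0.036 with atractylon and -0.03, 0.064 and -0.016 without. RFC1, with a GC content of 41.64% and named after its values were seen, was at 39.4, 21.8 and 24.5 CPM with atractylon and at 38.4, 25.9 and 31.5 CPM without. Its replicate 1 was the highest in each group. At the other end CDT1, with 64.99% GC, was lowest in replicate 1 of each group. The part of this trend in the estimates of single genes was addressed by removing it in each library. As with the trend left in, 0 genes were called. At an unadjusted p under 0.05 by edgeR's test there were 311 genes (2.53%), against 196 (1.59%) with the trend left in. In the set these were 2 genes, GINS1 and GMNN. The median of the set was then -0.03, and 31 estimates were below 0, against 49.4% of all genes. The trend's cause was not tested.

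**Figure D5:**
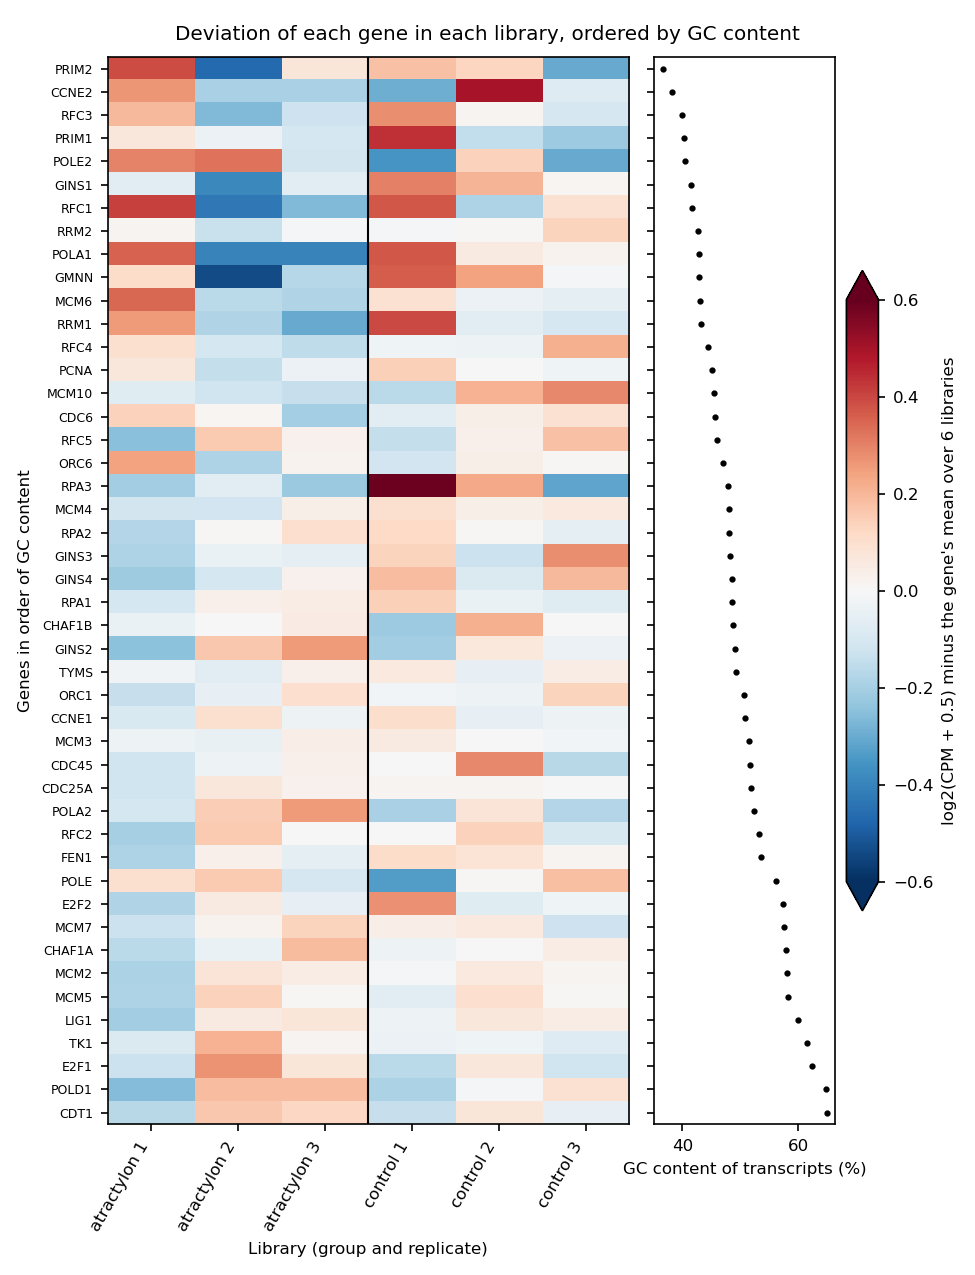
Deviation of each gene in each library, as log2(CPM + 0.5) minus the gene's mean over 6 libraries (colour), with genes in order of GC content (%, right panel) from PRIM2 at 36.59% to CDT1 at 64.99%. Atractylon replicate 1 runs from high to low down the panel and atractylon replicates 2 and 3 run the other way, while control replicates 2 and 3 show little order.

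Leaving out atractylon replicate 1, the library with the strongest trend towards low GC, raised the number of genes at an unadjusted p under 0.05 from 196 to 1316, and 1 gene outside the set was then called lower. Those 1316 genes were 10.9% of the 12113 genes tested in that setting. Of the 46 genes, 5 had an unadjusted p under 0.05 by edgeR's test, a share near that over all genes, namely RFC1, GINS1, E2F1, POLA1 and GMNN, and 0 passed the threshold. The smallest adjusted p of any of the 46 in any of 18 alternatives was 0.3701.

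The other genes of the pathway were taken from 6 further lists with 68 genes, of which 67 were tested and 0 were called higher or lower. Their estimates were above 0 for 36 and below 0 for 31, with a median log2 fold change of 0.0027. In the licensing and firing list, with 7 estimates above 0 and 8 below, MCM8, a helicase that acts in recombination repair, had the smallest p. It was at 12.8, 9.41 and 7.72 CPM with atractylon and at 16.1, 12.5 and 16.6 CPM without, with a log2 fold change of -0.59 ± 0.23 (SE) and groups that met at a single library. The fork factor list had 7 above and 6 below, and its smallest p was that of POLD4, a small subunit of polymerase delta, at 0.21 ± 0.16 (SE). The deoxynucleotide list had 6 above and 1 below, with the smallest p for the salvage kinase DCK at 0.20 ± 0.22 (SE). The chromatin list had 2 above and 5 below, and the remodeller HELLS had its smallest p at 0.25 ± 0.32 (SE), whose value rested on a level of 40.5 CPM in atractylon replicate 1 against 13.8 to 22.8 CPM in the other libraries.

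Among 19 regulators of the G1/S step, 11 estimates were above 0 and 8 below. The one with the smallest p was E2F4, an E2F that represses in quiescent cells, at 137 ± 12.9 CPM with atractylon and 126 ± 4.04 CPM without (SD, n = 3 each). The CDK inhibitors, which hold cells in G1, had 3 estimates above 0 and 3 below among the 6 tested. CDKN2C, an inhibitor of CDK4 and CDK6, was at 25.5, 25.9 and 26.1 CPM with atractylon and at 32.3, 32.7 and 26.2 CPM without. That bare separation was the only 1 in this direction among the 67 genes tested, against 3.02% of all genes. In FPKM its groups overlapped, at 13.96, 13.14 and 12.98 with atractylon and 20.37, 16.7 and 13.51 without. The log2 fold change of CDKN2C was -0.23 ± 0.15 (SE). CDKN1A, the p53 target p21 and named after its values were seen, was at 430.4 ± 49.25 CPM with atractylon and 413.3 ± 32 CPM without, with a log2 fold change of 0.06 ± 0.11 (SE).

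For the later part of the cycle, 12 G2/M genes gave 0 calls, with 5 estimates above 0 and 7 below and a median log2 fold change of -0.02. Cyclin B1 (CCNB1), the mitotic partner of CDK1, was at 78.2, 66.3 and 69.2 CPM with atractylon and at 98.9, 78.3 and 80.8 CPM without. All atractylon libraries were lower by a narrow margin, and the log2 fold change was -0.27 ± 0.13 (SE, interval -0.56 to 0.02). TPX2, a spindle assembly factor, was at 178.7, 179.6 and 179.2 CPM with atractylon and at 181.3, 187.1 and 222.5 CPM without, also without overlap, with a log2 fold change of -0.14 ± 0.11 (SE). These were 2 of the 12 genes, against 3.02% of all genes, and 0 separated in the other direction. The summed G2/M level was 1286, 1279 and 1278 CPM with atractylon and 1304, 1260 and 1342 CPM without, and the groups overlapped.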

How the data were processed

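RNA from 6 HepG2 libraries, 3 a group by the sample titles, was prepared with the SMART-Seq v4 kit for low input, per the labels' protocols. The authors deposited 1 table that gives, per the file headers, a transcript length and for every library an expected count and the FPKM. The deposited expected counts are estimates with fractions, because a read that fits several transcripts is split among them, so overlapping genes and sister transcripts are uncertain. The deposited FPKM values are scaled by depth and length. The submitters' processing notes name the build hg19 and the tools HISAT2 2.0.1, cutadapt 1.9.1, DESeq2 1.6.3 and bcl2fastq 2.17.1.14, without saying what each did. The counting program, the annotation it used and its strand setting were not found in the labels or headers. Low-input amplification can favour transcripts by GC content, and whether it had a part in the GC trend of these libraries was not tested.

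Of 180253 transcripts, 153245 (85.02%) matched GENCODE 29 by identifier, and the other 27008, with 8.7% to 9.07% of counts, stayed out of library sizes and tests. GENCODE 29 is built on GRCh38, so its coordinates were not joined to the table. Expected counts were summed per gene and rounded. Genes with at least 0.5 FPKM in at least 3 libraries were tested with edgeR 4.0.16 (trimmed-mean scaling, quasi-likelihood test with group as the only term, 2-sided, Benjamini-Hochberg adjustment over all genes tested), and transcripts likewise. CPM used the scaled library sizes. DESeq2 1.42.0 and limma 3.58.1 served as alternatives. The edgeR fits were tested on counts simulated without a GC trend, which says nothing on how they perform under that trend. The chi-square per degree of freedom between replicates was 3.43 to 19.61, so no library was a copy of another. The labels do not say whether replicates were separate cultures, so p-values reflect the spread among these libraries alone, and that may be technical.

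The members and the lists were chosen with earlier results of these data known. Values in all 6 libraries are given, per role, for the gene highest in FPKM and the gene with the smallest p, and for any of the 46 genes whose groups do not overlap in CPM. In the other lists the gene with the smallest p is named. Genes named outside this rule were chosen after their values were seen.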

Additional observations from a re-analysis of the deposited data

How the results depend on the processing

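Under the 18 alternatives tried, 0 of the 46 genes and 0 genes of the other pathway lists were called, 0 transcripts of the 46 genes were called under the 17 that were run on transcripts, and the median log2 fold change of the 46 genes stayed between -0.07 and -0.02. Over all transcripts, DESeq2 called 26 higher and 24 lower, and testing without the filter called 5 higher and 5 lower. Leaving out 1 library, or replicate 1 in each group, gave 0 to 1 genes called higher and 0 to 1 lower over all genes. Without replicate 1 in each group, 1113 genes (9.39%) had an unadjusted p under 0.05 by edgeR's test, 3 of them in the set. In that setting 26 of the 46 estimates were below 0, against 51.3% of all genes tested. The replicate numbers were not taken to pair the samples, since nothing in the labels says that equal numbers share a culture or day. Correlations of same-numbered libraries' deviations were 0.132, 0.176 and 0.011, and those of the other pairs ran from -0.168 to 0.023. These values do not settle whether the samples were paired, so a replicate block served as an alternative. The replicate block gave 0 calls, 297 genes (2.41%) at an unadjusted p under 0.05 by edgeR's test and a median of -0.04 for the set. GMNN stood beside GINS1 among those genes. Estimates of 16 genes kept their sign under every alternative, GINS1, GMNN, POLE2 and E2F1 among them, while 30 changed sign at least once, in 109 of 827 refits, and no value of changed sign exceeded 0.21 in size. With libraries left out, genes that kept their sign still moved, GMNN from -0.56 to -0.23, POLE2 from 0.21 to 0.53, E2F1 from 0.0399 to 0.24, RPA3 from -0.60 to -0.12, POLA1 from -0.57 to -0.13 and GINS1 from -0.43 to -0.24. On log2(FPKM + 0.5), with the pseudocounts 0.1 and 1 after it, the values of opposite sign were MCM10 at 0.17 (0.18, 0.16), MCM6 at -0.0192 (-0.0229, -0.0156), CDC45 at 0.0029 (0.0033, 0.0025), MCM4 at 0.0036 (0.0036, 0.0036), RPA1 at 0.0275 (0.0289, 0.0259), CHAF1B at 0.14 (0.15, 0.13), CDC25A at 0.0200 (0.0204, 0.0194), CHAF1A at 0.0708 (0.0721, 0.0691), RRM2 at 0.0599 (0.0603, 0.0595) and POLE at -0.0555 (-0.0569, -0.0540). With the GC trend removed, and with the replicate block as well, they were POLD1 at -0.0111 (-0.0089), CDC6 at 0.0194 (0.0196), CCNE1 at 0.0063 (0.0052), RFC5 at 0.0145 (0.0168), RPA2 at 0.0065 (0.0042), RPA1 at 0.0222 (0.0219), CHAF1B at 0.0306 (0.0439), MCM7 at -0.0262 (-0.0254) and CDT1 at -0.0053 (-0.0049). With protein-coding transcripts only they were RFC2 at 0.0059, ORC6 at -0.19, CCNE1 at 0.0850, PRIM2 at -0.0537, TYMS at 0.0015 and PRIM1 at 0.11. Without the filter CHAF1A was at 0.0006, and with the replicate block alone CHAF1B was at 0.0023. With libraries left out, the log2 fold changes that took both signs ranged as follows: CCNE1 from -0.0704 to 0.0734, CCNE2 from -0.55 to 0.19, CDC25A from -0.0571 to 0.0402, CDC45 from -0.20 to 0.0378, CDC6 from -0.16 to 0.0408, CHAF1A from -0.12 to 0.0736, CHAF1B from -0.11 to 0.0995, E2F2 from -0.19 to 0.0527, LIG1 from -0.11 to 0.0326, MCM2 from -0.0933 to 0.0374, MCM3 from -0.0652 to 0.0028, MCM5 from -0.10 to 0.0593, MCM6 from -0.17 to 0.11, MCM7 from -0.0565 to 0.11, ORC6 from -0.10 to 0.16, POLD1 from -0.0032 to 0.21, POLE from -0.0663 to 0.21, PRIM1 from -0.20 to 0.17, PRIM2 from -0.21 to 0.28, RFC1 from -0.46 to 0.0098, RFC2 from -0.12 to 0.0641, RFC5 from -0.15 to 0.0601, RPA1 from -0.0651 to 0.0935, RPA2 from -0.12 to 0.0830 and RRM1 from -0.33 to 0.0306. The cause was not tested. Depth limits CCNE2 and PRIM2 most, at a few CPM each.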

Other observations

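Outside the set, the 5 genes whose log2 CPM over the 6 libraries was most like the summed level of the 46 genes, among 8370 genes of at least 10 CPM, were AK1 (Pearson r = 0.993), ETNK2 (0.993), SAE1 (0.992), NUBP1 (0.99) and NUDC (0.986). AK1 encodes an adenylate kinase, ETNK2 an ethanolamine kinase, SAE1 a subunit of the SUMO-activating enzyme, NUBP1 an iron-sulfur cluster assembly factor and NUDC a nuclear distribution factor. With 6 libraries and 8370 candidates, 50 genes reached an r of 0.95, so these genes are named as a description and without a test. SAE1 showed the shape of the sum, at 256, 306 and 306 CPM with atractylon and 304, 314 and 294 CPM without, with atractylon replicate 1 the lowest library.

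The cell markers outside the hepatocyte lineage held 1 value far above the rest, of which CD68 at 18 FPKM, PDGFRB at 8.673 FPKM and CD14 at 7.998 FPKM came next. Lysozyme (LYZ), a marker of myeloid cells listed with the blood genes, averaged 568.5 FPKM, while PTPRC, the pan-leukocyte surface marker, was below 0.5 FPKM.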
